A study of Drosophila melanogaster with 15 samples.

Results

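The Egfr, Ras and ERK cascade was followed through 10 of its genes: the ligand gene spi, the receptor gene Egfr, the adaptor gene drk, the GTPase gene Ras85D, the kinase genes phl, Dsor1 and rl, the transcription factor genes pnt and aop, and the inhibitor gene sty. The genes were listed by name, and every probeset that carries such a name was taken from the 16322 probesets of the array. A probeset is a set of probes summarized to 1 value, and some carry several gene symbols or none. Of the 10 genes, 7 had a named probeset, 1 each. Ras85D, phl and pnt were matched to none and were not analysed here.

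Head RNA of 3 Drosophila genotypes was hybridized to GeneChip Drosophila Gene 1.0 ST arrays, with 5 arrays for each. In elav/v105975 flies the elav-Gal4 driver, which is active in neurons, switches on v105975, a UAS transgene for a hairpin RNA directed at the chloride intracellular channel gene Clic. The v105975/+ flies carried the hairpin transgene without the driver, and the elav/+ flies carried the driver without the hairpin. The comparisons ask which transcripts move with the driven hairpin, and which already move with the undriven one. A single hairpin line was used, and neither the age nor the sex of the flies, nor the chromosomes that carry the driver and the hairpin, are given in the sources used here. Separate crosses or collections behind the 5 arrays are not stated, so the p-values cover the spread between these arrays only. Whole heads hold neurons, photoreceptors, glia, fat body, muscle and blood cells, and in such a mixture fewer cells of a type and less RNA per cell cannot be told apart.

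Values are log2 intensities after robust multi-array averaging (RMA), and a difference of 1 is a 2-fold change. Array medians lay between 6.16 and 6.24. Clic, the targeted gene, averaged 8.40 ± 0.0850 in elav/v105975 heads, 8.94 ± 0.0825 in v105975/+ heads and 9.16 ± 0.0540 in elav/+ heads (SD, n = 5 each), so the knockdown followed the labels. The eye pigment transporter gene w, which marks transgenes, averaged 11.45 in elav/v105975, 7.17 in v105975/+ and 7.47 in elav/+ heads. Its probeset was named only through the study's table of probesets called between elav/v105975 and elav/+ heads. Of 7 listed neuronal markers, 6 were measured, at mean levels of 9.04 to 11.6, and of 7 photoreceptor markers, 5 were measured, at 10.6 to 13.4. Among all 37 measured markers of head cell types, 5 were higher and 4 lower in elav/v105975 than in elav/+ heads (24.3%, beside 9.43% of all probesets), and 3 were higher and 1 lower in v105975/+ than in elav/+ heads (10.8%, beside 6.10%). None passed the limma test between elav/v105975 and v105975/+ heads, where 3 reached an unadjusted p under 0.05. In elav/v105975 against elav/+ heads, outside the photoreceptors, the glial gene wrapper (0.43), the muscle gene Mhc (0.37) and the neuronal gene Rbp9 (0.16) were higher. The fat body gene apolpp (-0.34), the yolk protein genes Yp1 (-0.28) and Yp3 (-0.59) and the dosage compensation RNA lncRNA:roX1 (-0.73) were lower. A single marker need not stand for its cell type here, since the members of some lists differed in sign. Differences in this comparison were positive for 2 of 6 glial, 3 of 5 muscle, 3 of 5 fat body and 1 of 3 dosage compensation markers. They were positive for 6 of 6 neuronal and 5 of 5 photoreceptor markers, and for 0 of 4 hemocyte and 0 of 3 yolk protein markers. In v105975/+ against elav/+ heads, outside the photoreceptors, wrapper (0.41) was higher and lncRNA:roX1 (-0.71) lower. There, 3 of 6 glial, 5 of 5 muscle, 1 of 5 fat body, 1 of 3 dosage compensation and 4 of 6 neuronal markers had positive differences. The same held for 5 of 5 photoreceptor, 0 of 4 hemocyte and 0 of 3 yolk protein markers.

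In the fly, Spitz, the product of spi, is secreted and binds the Egfr receptor tyrosine kinase. The adaptor Drk links the active receptor to the exchange factor Sos, which loads Ras85D with GTP, and Ras then starts the kinase relay of Raf (phl), MEK (Dsor1) and ERK (rl, rolled). Active ERK enters the nucleus, where it relieves repression by the ETS factor Aop (Yan) and stimulates the ETS activator Pnt. Sprouty, the product of sty, is induced by the pathway and dampens it. The cascade is best known in the fly head for recruiting the cells of each ommatidium in the developing eye, and it serves survival, sleep and memory in the adult brain.

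Of the 7 measured members, the ERK gene rl alone passed the test between genotypes, and it was lower in elav/v105975 heads than in both others. This is 1 of 7 (14.3%), beside 9.43% of all probesets called against elav/+ and 0.417% against v105975/+. The rl probeset carries a name only because it was called against elav/+, and none of the 6 members named otherwise was called. In elav/v105975 heads the rl values were 8.89, 8.99, 9.10, 9.05 and 8.82. In v105975/+ heads they were 9.35, 9.44, 9.31, 9.25 and 9.29, and in elav/+ heads 9.32, 9.39, 9.25, 9.41 and 9.40. Every elav/v105975 array lay below all 10 others, whereas the 2 single-transgene genotypes overlapped throughout. The mean was 8.97 ± 0.113 in elav/v105975, 9.33 ± 0.0722 in v105975/+ and 9.35 ± 0.0695 in elav/+ heads (SD, n = 5 each).

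The log2 fold change of rl was -0.38 in elav/v105975 against elav/+ heads (SE 0.0596, 95% confidence interval -0.51 to -0.26, limma adjusted p = 8.44e-04), a level of 76.6% (70.2 to 83.7) of elav/+. Against v105975/+ heads the difference was -0.36 (-0.49 to -0.23, limma adjusted p = 0.00861), a level of 77.9% (71.4 to 85.1). Both comparisons reached 0.00794 in the exact two-sided permutation test, the smallest p that 5 against 5 arrays allow, among 21 such tests made on the members. Between v105975/+ and elav/+ heads the rl difference was -0.02 (-0.15 to 0.10, limma adjusted p = 0.895), which leaves room for a level between 90.0% and 107% of elav/+. Over the 3 genotypes together, the moderated F test of limma called rl (adjusted p = 9.35e-04) and 8.08% of all probesets. The 3 comparisons share arrays and are not independent of each other.

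The name of the rl probeset came from the study's table of probesets called between elav/v105975 and elav/+ heads, since the platform annotation gave it none. A probeset of rl that had not passed there would carry no name here, so the call against elav/+, and that of the F test, which holds the same arrays, are descriptions and support nothing. The comparison with v105975/+ uses 5 arrays that had no part in that naming, but the same 5 elav/v105975 arrays. It is therefore not independent of the naming. The array annotation places the probeset, with 25 probes, on the plus strand of 2RHet from 198176 to 251950, in pericentromeric sequence of the right arm of chromosome 2. No source used here names the build of these coordinates.

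**Figure D1:**
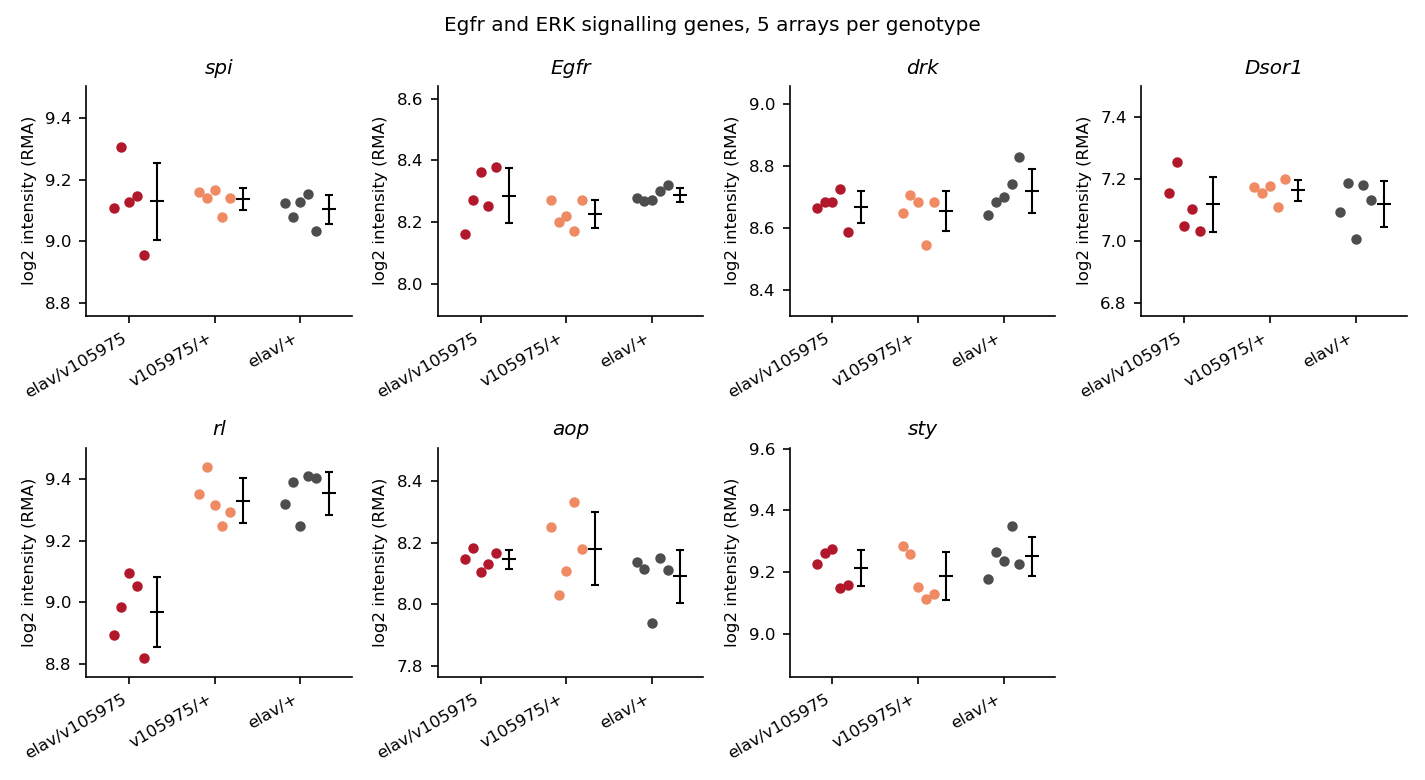
Log2 RMA intensity of the 7 measured members on each array, with elav/v105975, v105975/+ and elav/+ heads from left to right, points for arrays and bars for the mean ± SD of 5 arrays. All panels span the same height on the log2 axis at different offsets, and the elav/v105975 arrays stand below the others for rl alone, at 8.82 to 9.10.

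Across all probesets, 9.43% were called between elav/v105975 and elav/+ heads (5.17% lower, 4.26% higher), 6.10% between v105975/+ and elav/+ heads (3.47% lower, 2.62% higher), and 0.417% between elav/v105975 and v105975/+ heads (0.202% lower, 0.214% higher). An unadjusted p under 0.05 was reached by 23.5%, 18.5% and 9.07% of probesets in these 3 comparisons. Among the 6 members whose probesets the platform annotation names, none was called by limma in any of the 3 comparisons and none had an unadjusted p under 0.05. All 3 genotypes overlapped pairwise for each of these 6 genes, whereas 4.92% of all probesets lay wholly lower and 5.08% wholly higher in elav/v105975 than in elav/+ heads, 3.87% and 3.32% in v105975/+ than in elav/+ heads, and 1.07% and 1.24% in elav/v105975 than in v105975/+ heads. The 18 differences ran between -0.07 and 0.09 log2, with adjusted p between 0.477 and 0.995. Their confidence intervals stayed within -0.17 and 0.22, so that changes outside 88.8% to 116% of the compared genotype lay beyond the interval of every one. With 6 genes, a count of 0 is little different from what a background of 9.43% or less gives.

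The ligand gene spi had 9.11, 9.31, 9.13, 9.15 and 8.96 in elav/v105975 heads, 9.16, 9.14, 9.17, 9.08 and 9.14 in v105975/+ heads, and 9.12, 9.08, 9.13, 9.15 and 9.03 in elav/+ heads. The elav/v105975 arrays held both the highest and the lowest value of all 15, and they spread around the same centre as the others. Its differences were 0.03 in elav/v105975 and 0.03 in v105975/+ against elav/+, and -0.01 between elav/v105975 and v105975/+ (SE 0.0559, limma adjusted p of 0.830 or more).

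Egfr, the receptor, had 8.16, 8.27, 8.36, 8.25 and 8.38 in elav/v105975 heads, 8.27, 8.20, 8.22, 8.17 and 8.27 in v105975/+ heads, and 8.28, 8.27, 8.27, 8.30 and 8.32 in elav/+ heads. The elav/+ arrays lay close together, and the v105975/+ arrays lay at or just below their lower edge. That difference, -0.06 in v105975/+ against elav/+, had the lowest exact permutation p of the 6 genes, 0.0476, but a limma adjusted p of 0.560. Between elav/v105975 and elav/+ heads Egfr differed by -0.00 (-0.10 to 0.10).

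The adaptor gene drk had 8.66, 8.68, 8.68, 8.73 and 8.59 in elav/v105975 heads, 8.65, 8.71, 8.68, 8.55 and 8.68 in v105975/+ heads, and 8.64, 8.68, 8.70, 8.74 and 8.83 in elav/+ heads. A single elav/+ array was highest and a single v105975/+ array lowest, and the rest interleaved. The difference from elav/+ was -0.05 in elav/v105975 and -0.07 in v105975/+ heads (SE 0.0487, limma adjusted p = 0.590 and 0.542).

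Dsor1 encodes the MEK that phosphorylates Rolled, and it sits directly above rl in the cascade. Its values were 7.15, 7.25, 7.05, 7.10 and 7.03 in elav/v105975 heads, 7.17, 7.15, 7.18, 7.11 and 7.20 in v105975/+ heads, and 7.09, 7.19, 7.01, 7.18 and 7.13 in elav/+ heads. The means were 7.12 ± 0.0895 in elav/v105975, 7.16 ± 0.0345 in v105975/+ and 7.12 ± 0.0739 in elav/+ heads (SD, n = 5 each), and the 3 genotypes overlapped. Dsor1 differed by -0.00 between elav/v105975 and elav/+ heads (-0.11 to 0.11, limma adjusted p = 0.995), on the same arrays on which rl differed by -0.38.

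The ETS repressor gene aop had 8.15, 8.18, 8.10, 8.13 and 8.17 in elav/v105975 heads, 8.25, 8.03, 8.11, 8.33 and 8.18 in v105975/+ heads, and 8.14, 8.11, 7.94, 8.15 and 8.11 in elav/+ heads. Its elav/v105975 arrays lay close together, and its v105975/+ arrays scattered on both sides of them. The largest of the 18 differences was that of aop in v105975/+ against elav/+ heads, at 0.09 (-0.04 to 0.22, limma adjusted p = 0.477). Sprouty's gene sty, an ERK target as well as an inhibitor, had 9.23, 9.26, 9.28, 9.15 and 9.16 in elav/v105975 heads, 9.29, 9.26, 9.15, 9.11 and 9.13 in v105975/+ heads, and 9.18, 9.26, 9.24, 9.35 and 9.23 in elav/+ heads. The genotypes interleaved, and the fold change of sty against elav/+ was -0.04 in elav/v105975 and -0.06 in v105975/+ heads (SE 0.0506, limma adjusted p = 0.728 and 0.576).

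**Figure D2:**
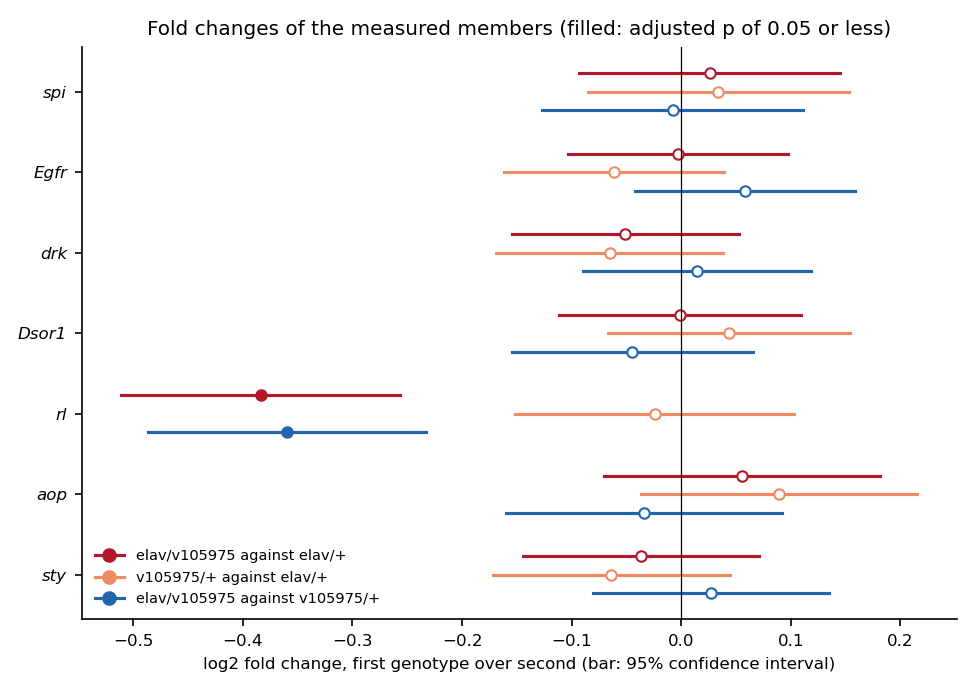
Log2 fold change of each measured member in the 3 comparisons, first genotype over second, with 95% confidence intervals from limma and filled points for an adjusted p below 0.05. The rl intervals against elav/+ (-0.51 to -0.26) and against v105975/+ (-0.49 to -0.23) lie left of 0, and every other interval includes 0.

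Setting rl against the other members on the same array removes anything that shifts all of them together. The log2 value of rl minus the mean of the other 6 members was 0.543 ± 0.0990 in elav/v105975 heads (0.441 to 0.661), 0.905 ± 0.0693 in v105975/+ heads (0.857 to 1.02) and 0.925 ± 0.0386 in elav/+ heads (0.868 to 0.961; SD, n = 5 each). The offset itself depends on the probes, and its differences between genotypes, -0.38 against elav/+ and -0.36 against v105975/+, were those of rl alone. This measure was chosen after the values had been seen.

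Within genotypes the members varied together to differing degrees. Over the 21 pairs, the Pearson correlation of deviations from the genotype means on 15 arrays ran between -0.42 (drk and aop) and 0.66 (rl and drk), with a median of 0.28, and 3 pairs exceeded 0.5. The other 2 were Dsor1 with spi at 0.58 and rl with sty at 0.54. These points share their arrays and the normalization, and the values are descriptive. The correlation of rl with Clic within genotypes was -0.11.

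The transcripts whose values over the 15 arrays were most like those of rl were then sought among 13605 probesets with 1 named gene. The closest were CG40498 (r = 0.927), CG40191 (r = 0.925) and spict (r = 0.917). The last encodes a regulator of BMP receptor traffic at the neuromuscular junction and lies on the other arm, 2L. Within genotypes the correlations were 0.69, 0.51 and 0.56. Among all 16321 other probesets CG40498 and CG40191 also ranked 1 and 2. In the RefSeq gene order of 2R, these 2 genes are the measured genes on either side of rl.

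The neighbourhood of rl was therefore laid out in gene order, a choice made after the values had been seen. Starting at the centromere, the first measured genes on 2R are CG40498, rl, CG40191 and Yeti, the gene of a chromatin protein. Whether any of the 4 overlap was not examined. CG40498 had 9.14, 9.28, 9.26, 9.24 and 9.18 in elav/v105975 heads, 9.54, 9.64, 9.60, 9.51 and 9.59 in v105975/+ heads, and 9.52, 9.48, 9.47, 9.51 and 9.52 in elav/+ heads. CG40191 had 7.96, 7.90, 7.94, 8.06 and 7.80 in elav/v105975 heads, 8.21, 8.46, 8.44, 8.33 and 8.35 in v105975/+ heads, and 8.35, 8.36, 8.29, 8.35 and 8.32 in elav/+ heads. As with rl, all 5 elav/v105975 arrays lay below the other 10 for both genes. Yeti had 8.54, 8.43, 8.36, 8.54 and 8.37 in elav/v105975 heads, 8.83, 9.00, 8.90, 8.72 and 9.01 in v105975/+ heads, and 8.82, 8.76, 8.92, 8.85 and 9.06 in elav/+ heads, again with the elav/v105975 arrays apart from the rest. Over the 15 arrays its correlation with rl was 0.859, rank 15 among all other probesets, but within genotypes it was only 0.21.

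Against v105975/+ heads the log2 fold changes of these lower genes in elav/v105975 were -0.36 (CG40498, limma adjusted p = 4.35e-04), -0.43 (CG40191, 8.87e-04) and -0.44 (Yeti, 0.00627), beside -0.36 for rl. Against elav/+ heads they were -0.28 for CG40498, -0.40 for CG40191 and -0.43 for Yeti (limma adjusted p = 7.74e-04, 3.43e-04 and 0.00126), beside -0.38 for rl. Between v105975/+ and elav/+ heads they were 0.08, 0.02 and 0.01, with adjusted p of 0.397 or more. Among all probesets 24, or 0.147%, were lower in elav/v105975 than in both other genotypes while these did not differ.

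**Figure D3:**
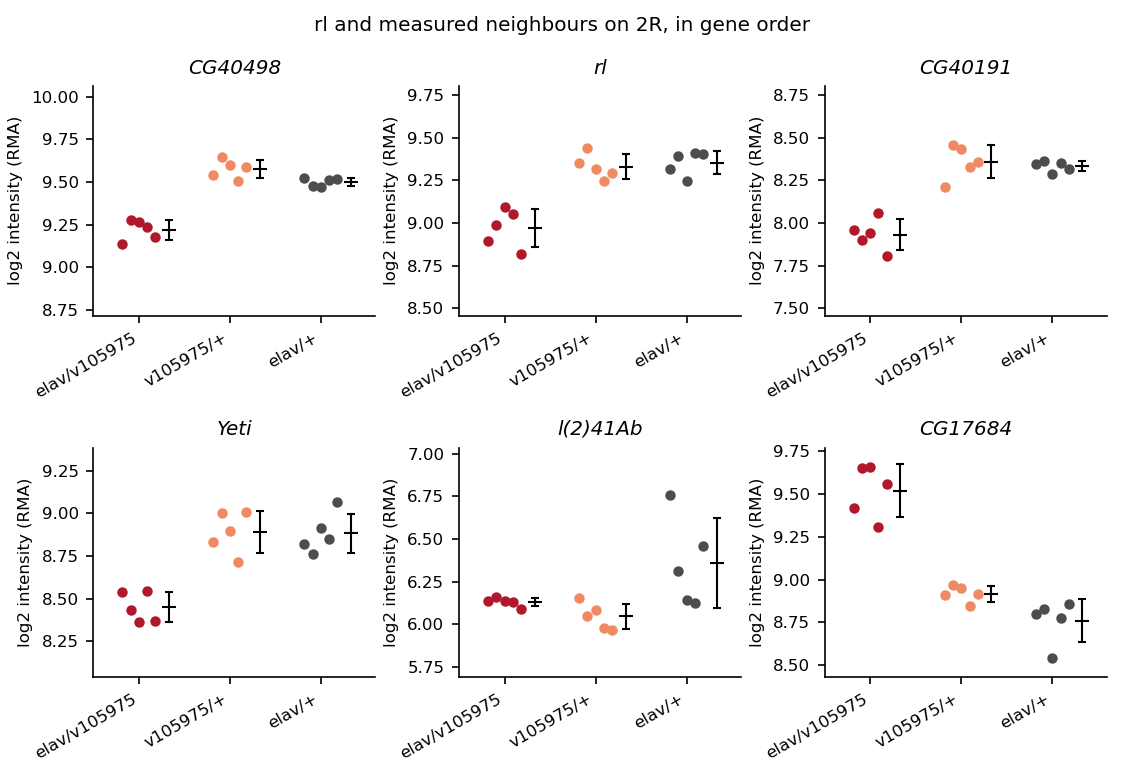
Log2 RMA intensity per array of rl and 5 measured genes near it on 2R, with elav/v105975, v105975/+ and elav/+ heads from left to right and bars for the mean ± SD of 5 arrays, on axes of equal height. In CG40498, rl, CG40191 and Yeti the elav/v105975 arrays lie below the other 10, in l(2)41Ab they do not, and in CG17684 they lie above, at 9.31 to 9.66.

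Farther along the arm no other measured gene of this stretch was lower in elav/v105975 by the limma test. The next gene, l(2)41Ab, differed by -0.23 in elav/v105975 and -0.31 in v105975/+ against elav/+ and by 0.08 between elav/v105975 and v105975/+ (adjusted p of 0.0697 or more), and the elav/+ arrays held its highest values. The last, Scp1, differed by -0.28 in elav/v105975 against elav/+ and by -0.27 against v105975/+, but was not called (limma adjusted p = 0.0931 and 0.403). Of the 11 measured genes other than rl in this stretch, 3 were lower and 3 higher in elav/v105975 than in elav/+ heads, where 9.43% of all probesets were called, and 9 had an unadjusted p under 0.05 (23.5% of all). In v105975/+ against elav/+ heads 1 was lower (6.10% called) and 3 reached an unadjusted p under 0.05 (18.5%). In elav/v105975 against v105975/+ heads 3 were lower and 1 higher (0.417% called) and 8 had an unadjusted p under 0.05 (9.07%). Since the stretch was chosen for its values, these counts are a description. The largest rise was that of CG17684, with 9.42, 9.66, 9.66, 9.31 and 9.56 in elav/v105975 heads, 8.91, 8.97, 8.95, 8.85 and 8.92 in v105975/+ heads, and 8.80, 8.83, 8.54, 8.78 and 8.85 in elav/+ heads. It was higher by 0.60 against v105975/+ and by 0.76 against elav/+ (limma adjusted p = 5.41e-04 and 1.88e-05), and its elav/v105975 arrays did not overlap the rest. On the other side of the centromere, none of the last 8 measured genes of 2L was called by limma in any comparison, and an unadjusted p under 0.05 was reached by 1 in elav/v105975 against elav/+, by 0 in v105975/+ against elav/+ and by 1 in elav/v105975 against v105975/+ heads.

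**Figure D4:**
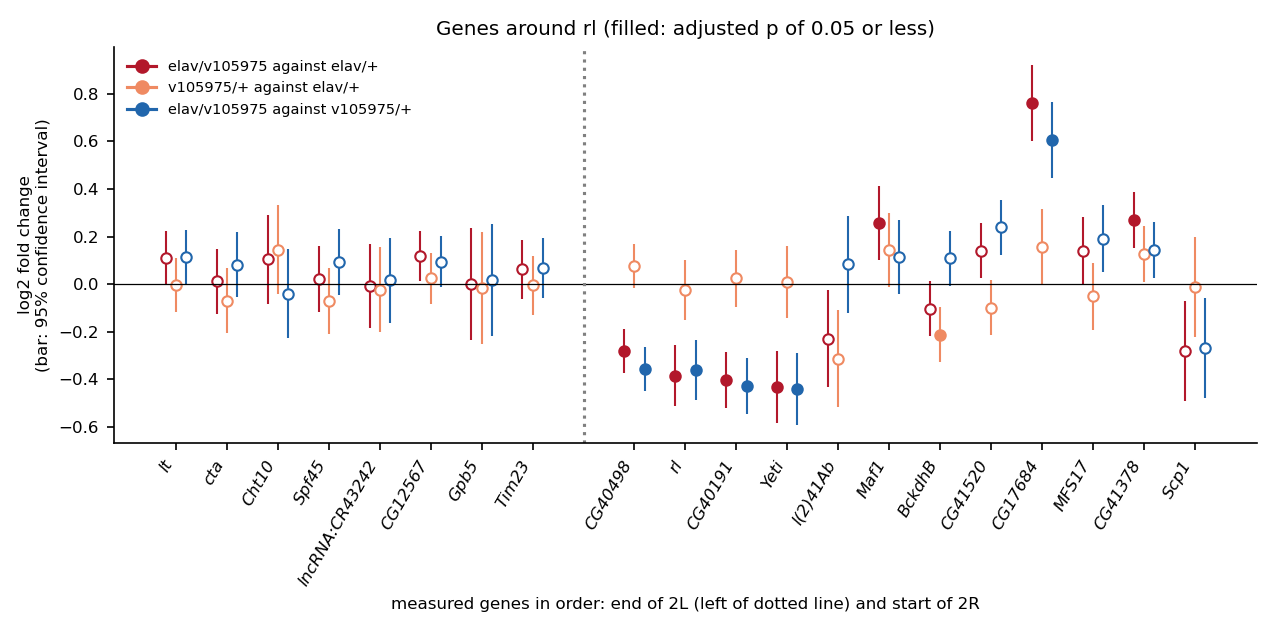
Log2 fold change with 95% confidence interval for the last 8 measured genes of 2L and the first 12 of 2R, in gene order and not to scale, in the 3 comparisons, with filled points for an adjusted p below 0.05. CG40498, rl, CG40191 and Yeti lie between -0.28 and -0.44 wherever elav/v105975 is compared, and near 0 (-0.02 to 0.08) between v105975/+ and elav/+.

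The other genes of the cascade came from a list of 76, of which 61 had a named probeset. Names from the table of called probesets, through which rl was named, were not used for this list. Between elav/v105975 and elav/+ heads 3 of the 61 were higher and 1 lower (6.56%, beside 9.43% of all probesets), with a median difference of 0.04 against -0.00 over all probesets, and 16 had an unadjusted p under 0.05 (23.5% of all probesets). Between v105975/+ and elav/+ heads 2 were higher and none lower (3.28%, beside 6.10%), with a median of 0.03, and 13 had an unadjusted p under 0.05 (18.5% of all). Between elav/v105975 and v105975/+ heads limma called none (0.417% of all), while 7 had an unadjusted p under 0.05 (9.07% of all). The counts were near these backgrounds.

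The 4 called genes were among the 16 measured genes for other receptors that signal through Ras, and for their ligands (25%, beside 9.43% of all probesets, in elav/v105975 against elav/+ heads), and 3 of the 4 calls were lost on leaving out single arrays. Pvf3, a ligand of the PDGF and VEGF receptor homologue Pvr, had 7.86, 7.92, 7.98, 7.96 and 7.88 in elav/v105975 heads, 7.88, 7.80, 7.75, 7.74 and 7.74 in v105975/+ heads, and 7.76, 7.70, 7.70, 7.66 and 7.62 in elav/+ heads. The elav/v105975 arrays lay above all elav/+ arrays, and the v105975/+ arrays overlapped both. Pvf3 was higher by 0.23 in elav/v105975 than in elav/+ heads (0.14 to 0.33, limma adjusted p = 0.00458). It differed by 0.09 between v105975/+ and elav/+ heads and by 0.14 between elav/v105975 and v105975/+ heads (adjusted p = 0.288 and 0.315).

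Jeb, the ligand of the receptor tyrosine kinase Alk, was higher in both genotypes that carry the hairpin. Its values were 10.41, 10.49, 10.52, 10.31 and 10.34 in elav/v105975 heads, 10.55, 10.47, 10.50, 10.38 and 10.28 in v105975/+ heads, and 10.18, 10.21, 10.18, 10.24 and 10.22 in elav/+ heads. The elav/+ arrays lay below all the others. The differences from elav/+ were 0.21 in elav/v105975 and 0.23 in v105975/+ heads (limma adjusted p = 0.0314 and 0.0280). Both used the same elav/+ arrays.

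Boss, the ligand of Sevenless in photoreceptor recruitment, was higher than in elav/+ heads in both hairpin genotypes, with fold changes of 0.24 in elav/v105975 and 0.25 in v105975/+ (limma adjusted p = 0.0318 and 0.0327), with overlapping arrays. The photoreceptor genes trp and ninaC were higher in the same comparisons, trp by 0.30 and 0.28 and ninaC by 0.20 and 0.19. The summed log2 values of the 5 measured photoreceptor markers were 60.6 to 61.1 in elav/v105975, 60.6 to 60.9 in v105975/+ and 59.9 to 60.4 in elav/+ heads, and the part of this shift in the value of boss was not tested. Tsl, which is required to activate the receptor Torso, was lower in elav/v105975 than in elav/+ heads, with a fold change of -0.31 (limma adjusted p = 0.0261), with overlapping arrays, and differed by -0.11 in v105975/+ heads (adjusted p = 0.552). Against elav/+ heads in elav/v105975, the call of boss was lost on leaving out any of 7 of the arrays (adjusted p up to 0.0798), that of jeb any of 8 (up to 0.0811) and that of tsl any of 6 (up to 0.0671), whereas that of Pvf3 held without each (0.00373 to 0.0153). In v105975/+ heads the calls of boss and jeb were lost without any of 8 and 7 arrays (up to 0.0847 and 0.0759).

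No gene in the other roles was called by limma in any comparison. Among 5 extracellular and membrane inhibitors, 3 had an unadjusted p under 0.05 between elav/v105975 and elav/+ heads, with kek1, an Egfr antagonist, at 0.12 (limma adjusted p = 0.108) and fred at 0.11 (0.147). None of the 5 genes for Egfr ligands and their processing had an unadjusted p under 0.05, and the 2 with the smallest p, Cnir and cni, differed by 0.08 and 0.06 between elav/v105975 and v105975/+ heads (limma adjusted p = 0.748 and 0.838). Before Ras, the adaptor Shc differed by -0.20 between elav/v105975 and v105975/+ heads and the phosphatase csw by 0.11 between v105975/+ and elav/+ heads (adjusted p = 0.321 and 0.129). The Ras GTPase activators Nf1 and vap differed by 0.12 and 0.11 between elav/v105975 and elav/+ heads (adjusted p = 0.223 and 0.225).

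At the Raf step, the scaffold genes cnk and Sur-8 differed from elav/+ by 0.14 and 0.14 in elav/v105975 heads and by 0.18 and 0.13 in v105975/+ heads, with adjusted p of 0.0996 or more. The phosphatase genes Ptp10D and PTP-MEG2 differed by 0.11 and 0.12 between elav/v105975 and v105975/+ heads (limma adjusted p = 0.421 and 0.452). Of 10 nuclear effectors, Ets97D differed by 0.21 between elav/v105975 and elav/+ heads and the corepressor gene gro by 0.08 (adjusted p = 0.127 and 0.275). In this comparison 5 of the 10 had positive differences, with a median of 0.004 and a range of -0.21 to 0.21. Of 5 ERK-responsive genes, mirr, an Iroquois homeobox gene, had fold changes of 0.15 in elav/v105975 and 0.18 in v105975/+ against elav/+ heads, each time without overlap (limma adjusted p = 0.0906 and 0.0595), and ind differed by 0.14 and 0.22 (0.342 and 0.168).

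**Figure D5:**
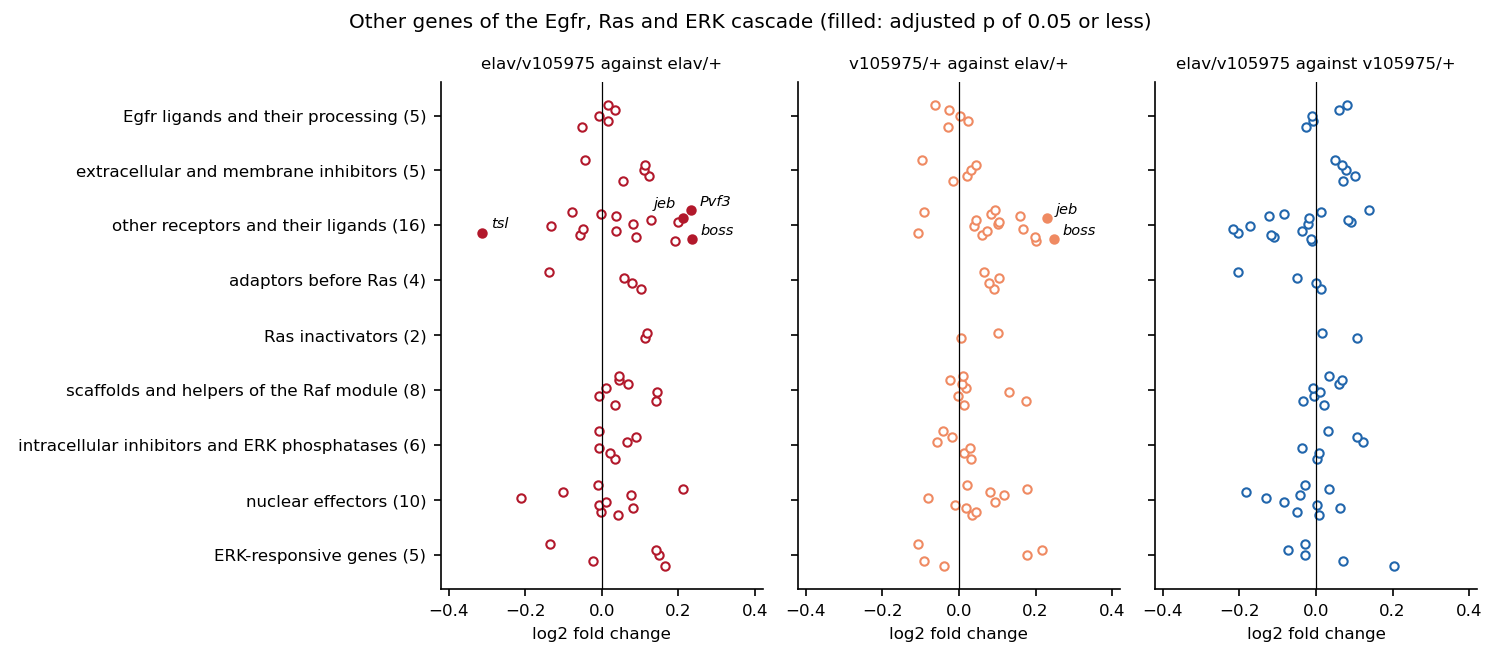
Log2 fold change of 61 further genes of the cascade by role, with the number of measured genes in brackets, in the 3 comparisons, and filled points for an adjusted p below 0.05. The called genes are Pvf3, jeb, boss and tsl against elav/+ in elav/v105975 heads, and jeb and boss against elav/+ in v105975/+ heads, and none is filled between elav/v105975 and v105975/+.

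The parallel JNK and p38 modules served as a comparison, with 14 measured genes. The JNK gene bsk alone was called (7.14%, near the 9.43% of all probesets), with 8.71, 8.82, 8.76, 9.04 and 8.90 in elav/v105975 heads, 8.71, 8.67, 8.72, 8.71 and 8.87 in v105975/+ heads, and 8.64, 8.62, 8.62, 8.66 and 8.64 in elav/+ heads. The elav/+ arrays were the lowest. The difference between elav/v105975 and elav/+ heads was 0.21 (limma adjusted p = 0.0424), a call lost on leaving out any of 12 of the arrays (adjusted p up to 0.0915), and between elav/v105975 and v105975/+ heads it was 0.11 (adjusted p = 0.613).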

How the data were processed

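RNA from whole heads of 3 genotypes was hybridized to 15 arrays. The authors corrected the background, normalized and summarized the probes by RMA and deposited log2 values for 16322 probesets, with oligo 1.44.0 named in the submitters' processing notes. Quantile normalization hides a change shared by most transcripts. The number of arrays and the spread between them limit precision. The deposited values were fitted in limma 3.58.1 (R 4.3.3; lmFit, contrasts.fit, eBayes with default settings) over all 15 arrays, and p-values were adjusted by Benjamini-Hochberg across the whole array, with a threshold of 0.05. Single values were also tested by exact two-sided permutation over 252 divisions.

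Of the probesets, 13441 had 1 gene symbol in the platform annotation, 555 several and 2326 none. Symbols were updated through Entrez identifiers (13064 matched RefSeq), 164 probesets were named through the study's table of all probesets and 45, rl and w among them, through its table of called probesets. The study's tables also hold the authors' fold changes and p-values, which were not used. Names from the table of called probesets served only for the members, Clic and w. In the other lists, a gene named only there counted as having no named probeset. RefSeq (Release 6 plus ISO1 MT) gave gene order only.

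The members and gene lists were chosen with earlier results of these data known. Named were all members, the called genes of the pathway list or otherwise up to 2 per role with the smallest p, the 3 genes most like a called member, Clic and w. The neighbours of rl, and the photoreceptor genes trp and ninaC and bsk, were named after their values had been seen. Lists used the probeset with the highest mean per gene. Alternatives were the fit of only the 10 arrays compared, a replicate block, an intensity trend, array weights, removal of the dimmest 25% of probesets, a further quantile normalization, median centring, adjustment over probesets with 1 symbol and rl, an adjusted p of 0.01, and leaving out each array.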

Additional observations from a re-analysis of the deposited data

Results flagged for a closer look

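A single array stood apart from the other 4 of its genotype in 4 of 78 gene and genotype combinations examined, and chance gives about 5% of such groups. These were aop at 7.94 and CG17684 at 8.54 in replicate 3 of elav/+, tsl at 7.81 in replicate 1 of v105975/+, and bsk at 8.87 in replicate 5 of v105975/+.

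The change against elav/+ differed between elav/v105975 and v105975/+ heads in 8 of the 26 named genes and neighbours, beside 0.417% of all probesets. This is the limma comparison of these 2 genotypes already given above. CG40498, CG40191 and spict were chosen for their likeness to rl, and Yeti and CG17684 were named after their values had been seen. The count is therefore a description. The difference of the changes was -0.36 for rl, -0.36 for CG40498, -0.43 for CG40191, -0.44 for Yeti, -0.31 for spict, -0.54 for Clic, 0.60 for CG17684 and 4.28 for w.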

How the results depend on the processing

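The call of rl against v105975/+ held under all 9 alternatives and on leaving out each of 15 arrays, with differences of -0.39 to -0.32 without single arrays (limma adjusted p 0.00660 to 0.0323) and adjusted p up to 0.0457 under the other settings. All these fits reuse elav/v105975 arrays through which the probeset got its name. They cannot remove that selection and are a description. Its difference from elav/+ was -0.42 to -0.35 without single arrays, but the probeset has a name only because it passed in that comparison, so its call there under other settings is no support. None of the other 6 members was called under any setting. CG40498, CG40191, Yeti, CG17684 and Pvf3 kept their calls throughout, while spict lost its call against v105975/+ on leaving out 7 of the arrays and under 3 other settings (adjusted p up to 0.0937). CG40498, CG40191 and spict were chosen for their likeness to rl, Yeti and CG17684 after their values had been seen, and Pvf3 because it was called. For these genes too, the other settings cannot remove the selection and are a description. Clic in v105975/+ against elav/+ lost its call without any of 5 arrays and under 2 other settings (up to 0.0729).

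The replicate numbers showed little sign of pairing the arrays, since same-numbered arrays had correlated deviations of -0.0556 to 0.153. For 0 of 15 arrays, the same-numbered array was the best match in both other genotypes at once. A best match in only 1 of them was not counted. With the replicate number as a block, the limma adjusted p of rl in elav/v105975 heads was 0.00456 against elav/+ and 0.0429 against v105975/+, at log2 fold changes of -0.38 and -0.36, and the counts of called members stayed at 1, 0 and 1.

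The number of other cascade genes called between elav/v105975 and elav/+ heads, 4 in the fit reported, was 2 with only the 10 arrays compared, 1 at an adjusted p of 0.01, and 1 to 4 without single arrays. Between v105975/+ and elav/+ heads, 2 in the fit reported, it was 1 with 10 arrays, 4 with an intensity trend, 0 at an adjusted p of 0.01, and 0 to 3 without single arrays. The causes were not tested. Uncalled differences near 0 changed sign. Dsor1 against elav/+ in elav/v105975 heads was 0.0166 with array weights, 0.0126 after median centring and -0.0347 to 0.0206 without single arrays. Egfr in the same comparison was 0.0107 after median centring and -0.0258 to 0.0282 without single arrays, and spi was -0.0177 to 0.0693 without them. Between elav/v105975 and v105975/+ heads spi was 0.0036 with array weights and -0.0517 to 0.0353 without single arrays, with -0.0126 to 0.0351 for drk and -0.0716 to 0.0038 for aop.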
